A study of Homo sapiens with 3 samples.

Results

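The 48 genes described here encode the machinery that copies DNA and the enzymes and factors that serve it in S phase, from the MCM helicase and the polymerases to nucleotide synthesis. They were chosen by name, as the rows of the deposited table that carry 1 of 48 gene symbols, and all 48 were found among the 30866 symbols of the table. Expression was measured by RNA sequencing in HCC827, an established line of human non-small cell lung cancer cells that carries an activating mutation of the EGF receptor. All 3 populations carried the ClonTracer library of DNA barcodes as a polyclonal pool. The vehicle population was kept in 0.1% DMSO for 4 days, without either drug. The erlotinib-resistant population had been in 2 µM erlotinib, which blocks the kinase of the EGF receptor, over 47 days. Cells of that population then spent 10 days more in 2 µM erlotinib and 0.2 µM crizotinib, which blocks the kinase MET, to give the dual-resistant population. Going from vehicle to the erlotinib-resistant library is called the first step, and from there to the dual-resistant library the second step. Each population is 1 library, so no difference has an error or a test, and drug, duration and resistance cannot be told apart.

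Replication starts at origins that are bound by the origin recognition complex and loaded, before S phase, with the MCM2-7 helicase by CDC6 and CDT1. In S phase CDC45 and the GINS complex activate the helicase, polymerase alpha with its primase lays down primers, and polymerases delta and epsilon extend them with the sliding clamp PCNA, which the RFC complex loads. Many of these genes are transcribed by E2F factors once the retinoblastoma protein is inactivated, so the group is widely read as a sign of cells entering S phase. In EGFR-mutant lung cancer cells, erlotinib is known to stop the cycle before S phase.

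The proximal promoters of 4 of the genes are shown because they had the highest and the lowest differences of the group at the first step, TYMS and CDT1 at the high end and MCM3 and GINS2 at the low end. Each runs 5′ to 3′ from 250 bases before to 50 bases after the annotated start, from RefSeq on build GRCh38.p14. Capitals mark an E2F-type word, 1 of TTTCCCGC, TTTCGCGC, TTTGCCGC and TTTGGCGC on either strand. The stretches are chr18:657403-657702 on the plus strand for TYMS, chr16:88803539-88803838 on the plus strand for CDT1, chr6:52284693-52284992 on the minus strand for MCM3 and chr16:85688905-85689204 on the minus strand for GINS2.
TYMS: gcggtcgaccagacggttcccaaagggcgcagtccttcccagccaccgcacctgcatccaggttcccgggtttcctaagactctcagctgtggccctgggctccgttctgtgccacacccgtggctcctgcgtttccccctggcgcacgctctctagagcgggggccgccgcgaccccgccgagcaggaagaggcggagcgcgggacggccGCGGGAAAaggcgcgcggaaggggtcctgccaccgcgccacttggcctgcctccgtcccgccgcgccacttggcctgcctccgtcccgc
CDT1: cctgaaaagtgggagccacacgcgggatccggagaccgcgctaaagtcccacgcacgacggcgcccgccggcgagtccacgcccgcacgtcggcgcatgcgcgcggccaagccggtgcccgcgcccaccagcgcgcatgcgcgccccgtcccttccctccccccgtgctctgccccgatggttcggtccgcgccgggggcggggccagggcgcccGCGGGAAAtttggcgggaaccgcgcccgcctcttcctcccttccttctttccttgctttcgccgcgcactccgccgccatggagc
MCM3: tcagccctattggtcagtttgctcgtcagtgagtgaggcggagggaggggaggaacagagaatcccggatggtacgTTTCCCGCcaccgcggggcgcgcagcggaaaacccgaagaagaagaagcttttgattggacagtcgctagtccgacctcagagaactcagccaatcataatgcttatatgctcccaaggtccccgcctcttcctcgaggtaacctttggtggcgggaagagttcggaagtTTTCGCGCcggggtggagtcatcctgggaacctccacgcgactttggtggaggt
GINS2: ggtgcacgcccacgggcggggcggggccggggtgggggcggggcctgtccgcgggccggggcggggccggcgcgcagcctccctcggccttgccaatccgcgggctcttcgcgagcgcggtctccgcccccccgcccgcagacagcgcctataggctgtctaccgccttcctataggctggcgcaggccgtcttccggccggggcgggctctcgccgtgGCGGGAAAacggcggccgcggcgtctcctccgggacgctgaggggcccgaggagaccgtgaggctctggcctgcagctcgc

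All 4 promoters held the word TTTCCCGC, read on the opposite strand in TYMS, CDT1 and GINS2. Its first base lay at position -39 from the start in TYMS, -35 in CDT1 and -31 in GINS2. In MCM3 it lay at -174, and TTTCGCGC followed at -4. So these letters stood in promoters of genes from both ends of the range. A promoter was at hand for 42 of the 48 genes, all but MCM4, MCM5, GINS4, POLD3, RPA2 and RPA3. An E2F-type word was in 20 of the 42 (47.6%), in 3.33% of all 27305 promoters of the same length and in 3 of 28 promoters of G2 and M phase genes (10.7%). The hexamer TTTGAA, the core of the element known as CHR in genes of mitosis, showed the opposite pattern. It was in 1 of the 42 replication promoters, that of RRM1, in 21 of the 28 G2 and M phase promoters (75%) and in 15.4% of all promoters. CCAAT was in 25 of 42, 22 of 28 and 35.7% respectively. TATAAA, the core of a TATA box, was in 2 of 42 (4.76%), 3 of 28 and 12.0%. Among the 9109 promoters of genes compared here, the shares were 5.27% for an E2F-type word, 9.38% for TTTGAA, 36.9% for CCAAT and 5.60% for TATAAA, so the share of TATAAA among the replication promoters lay near that of the genes compared. All words were searched on both strands, overlapping matches were kept, and a match describes letters and not a bound site.

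Values are FPKM (fragments scaled to transcript length and to the number mapped), which can be compared between genes because they are per length. In vehicle the 48 genes ranged from 0.286 FPKM in CLSPN to 104 in POLD2, with a median of 10.4. After erlotinib alone they ranged from 0.516 in CLSPN to 109.8 in MCM7 with a median of 13.7, and after both drugs from 1.39 in MCM10 to 114 in POLD2 with a median of 14.7. The median of the 13425 genes that reached 1 FPKM in any library was 10.1, 10.5 and 10.5 FPKM in the same order, so these are genes of middling level. As deposited, 26 of the 48 had their highest value in the dual-resistant library, 12 in the erlotinib-resistant one and 10 in vehicle. None was listed at 0 and none had a missing value. The lowest, CLSPN, stood on roughly 93 fragments in the vehicle library, and the next, MCM10, on 164, by an estimate of the worth of 1 fragment.

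**Figure D1:**
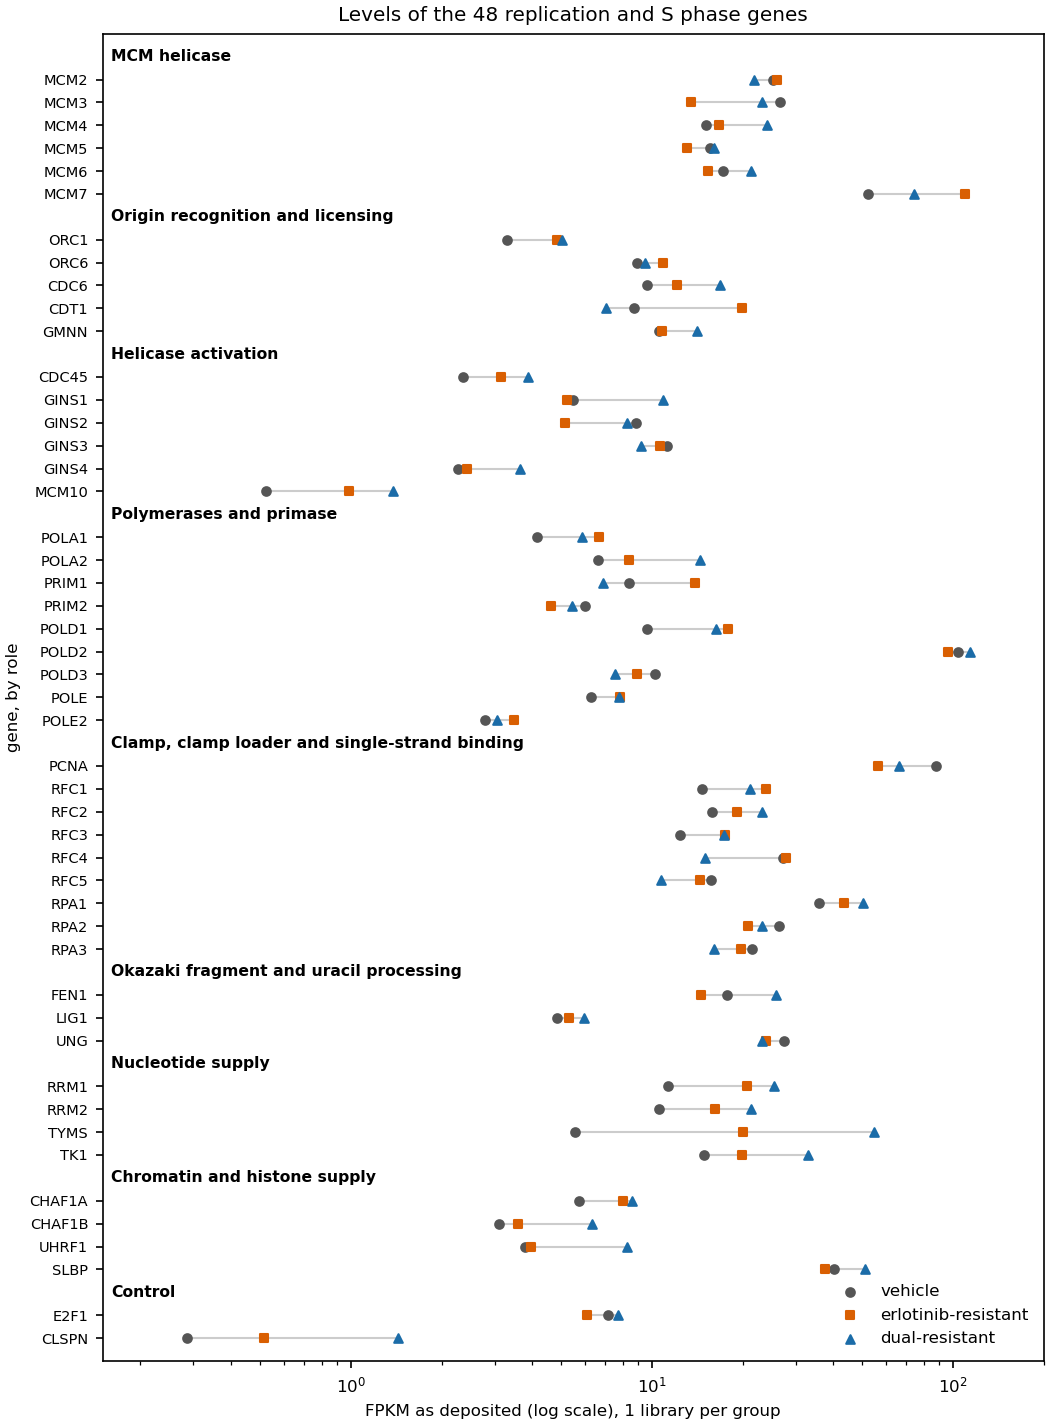
FPKM of each of the 48 genes (log axis) in the vehicle (circles), erlotinib-resistant (squares) and dual-resistant (triangles) libraries, 1 library per group, by role. Most genes lie close together in the 3 libraries, and TYMS spans from 5.54 to 54.6 FPKM.

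Differences are given as the log2 difference of FPKM + 1, and a gene is called higher or lower at 1 or more in either direction (2-fold). At the first step, 3 of the 48 genes were called higher (TYMS, CDT1 and MCM7) and none lower. Over all 13381 genes compared, 3.81% were called higher and 6.03% lower. The median log2 difference of the 48 was 0.15, against 0.00 over all genes, and 36 of the 48 (75.0%) lay within 0.5 of no difference, against 66.6% of all genes. At the second step TYMS alone was called higher and CDT1 alone lower, where 10.1% of all genes were higher and 7.22% lower. Here the median was 0.23 against -0.03 over all genes. Over both steps together, from vehicle to dual-resistant, 4 were called higher (TYMS, RRM1, TK1 and POLA2) and none lower, where 11.0% of all genes were higher and 10.4% lower. Here the median was 0.39 against -0.01. The shares called higher, 6.25%, 2.08% and 8.33% of the 48, thus lay within a few percentage points of the background or below it. Both comparisons with vehicle share that library, and all 3 comparisons rest on the same 3 libraries.

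The deposited FPKM sums differ between the libraries (596084, 528920 and 494817), so the same counts were taken after scaling all libraries to 1 common sum, which moved the median of all genes to 0.14 at the first step and 0.22 over both. At the first step, the same 3 genes were then higher and none lower, where 5.54% of all genes were higher and 4.78% lower. At the second step TYMS and GINS1 were higher and CDT1 lower, with a background of 11.4% and 6.30%. Over both steps 9 were higher and none lower, with a background of 15.3% and 7.89%, as GINS1, RRM2, CHAF1B, UHRF1 and CLSPN joined the 4 named above. Over all genes, calls in the higher direction made up 38.7% of calls as deposited and 53.7% with the scaling at the first step. Over both steps they made up 51.3% and 66.0%.

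Genes of G2 and M phase, which follow S phase in the cell cycle, differed far more at the first step. Of 33 such genes, 28 were higher at the first step and 0 lower, where 3.81% of all genes were higher and 6.03% lower. Their median log2 difference was 1.38, against 0.15 for the replication genes. TOP2A, the topoisomerase that untangles sister chromatids, stood at 14.1, 88.2 and 73.5 FPKM in vehicle, after erlotinib and after both drugs, and CKS2, which binds the cyclin-dependent kinases and differed least, at 92.1, 108 and 145. With the libraries scaled to the same sum the medians were 1.52 and 0.28. A ratio within 1 library needs no scaling between libraries. The summed FPKM of the 48 replication genes was 2.01 times that of the 33 G2 and M phase genes in vehicle (791 against 393), 0.884 times after erlotinib (872 against 986) and 0.913 times after both drugs (966 against 1058). At the second step the medians of both groups were close, at 0.23 for the replication genes and 0.17 for the G2 and M phase genes. RNA per cell and the share of cells in each phase cannot be told apart in bulk RNA.

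**Figure D2:**
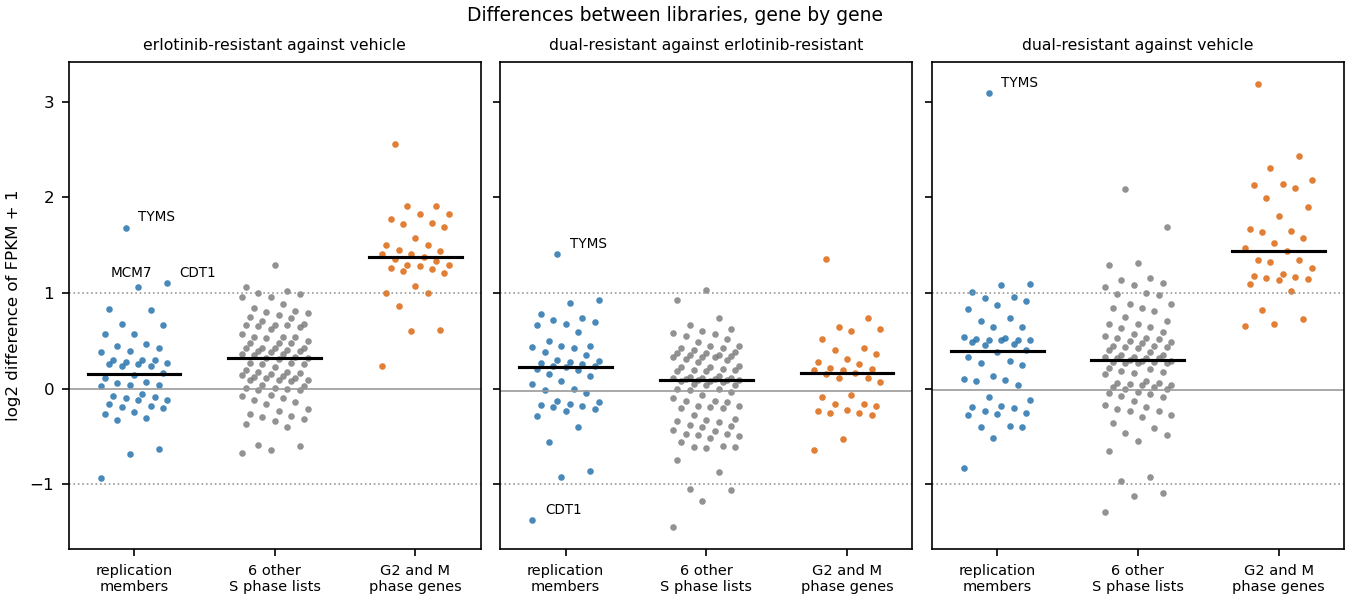
Log2 difference of FPKM + 1 for each of the 48 replication genes, 6 other lists of S phase genes and 33 G2 and M phase genes, in the 3 comparisons (1 library against 1). Black bars are medians, dotted lines the limits of 1 and -1 and the grey line the median of all genes; at the first step the G2 and M phase genes centre on 1.38 and the replication genes on 0.15.

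The enzymes of nucleotide supply had the highest median of the 9 role groups at the first step (0.69) and over both steps (1.09). At the second step their median, 0.54, was next to that of the chromatin and histone genes, 0.55. TYMS, thymidylate synthase, makes the thymidine nucleotide dTMP from dUMP and is the target of fluoropyrimidine drugs (Entrez ID 7298, chromosome 18, 657604 to 673499, GRCh37). It stood at 5.54 FPKM in vehicle, 20.0 after erlotinib and 54.6 after both drugs. The 3 libraries were thus well apart, with a log2 difference of 1.68 at the first step, 1.40 at the second and 3.09 over both, an 8.50-fold higher level of FPKM + 1. TYMS was the highest of the 48 differences in each comparison, and moved from rank 37 of the 48 by level in vehicle to rank 4 in the dual-resistant library. RRM1, the large subunit of ribonucleotide reductase, which makes deoxyribonucleotides (Entrez ID 6240, chromosome 11, 4115924 to 4223759), was at 11.3, 20.7 and 25.3 FPKM. RRM2, the small subunit of the same enzyme, stood at 10.5, 16.2 and 21.3. The 2 subunits stayed near each other, RRM1 being 1.07, 1.28 and 1.19 times RRM2. TK1, the thymidine kinase of the salvage pathway (Entrez ID 7083, chromosome 17, 76170160 to 76183285), had levels of 14.9, 19.9 and 32.9 FPKM. All 4 enzymes were lowest in vehicle and highest in the dual-resistant library, with log2 differences between those 2 libraries from 0.95 in RRM2 to 3.09 in TYMS. That order, higher at each step, was not theirs alone and held for 19 of the 48 genes as deposited.

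Other genes of nucleotide supply, 14 in a list that holds DUT, DCK and IMPDH2 among others, were then read. Of the 12 compared at the first step 0 were higher and 0 lower, where 3.81% of all genes were higher and 6.03% lower. Of 13 compared over both steps 0 were higher and 1 lower, where 11.0% of all genes were higher and 10.4% lower. With the scaling to the same sum 1 was higher over both steps, SHMT1 (1.06), and 1 lower, with a background of 15.3% and 7.89%. In a list this short such counts cannot be set apart from those shares. DUT, which makes the dUMP that thymidylate synthase converts and was named after its values were seen, stood at 16.9, 16.7 and 21.4. TK2, the mitochondrial thymidine kinase, was the 1 called lower, at 10.8, 9.02 and 3.83 FPKM, a log2 difference of -1.29 over both steps.

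The neighbours of TYMS on the chromosome were read beside it. Within 500 kb, 4 other genes were compared, and none differed as much. YES1, which encodes a kinase of the SRC family, stood at 12.7, 24.4 and 27.9 FPKM, a log2 difference of 1.08 over both steps. THOC1, of an mRNA export complex, stood at 6.70, 11.1 and 9.34, and USP14, a deubiquitinase of the proteasome, at 17.99, 21.5 and 26.5. ENOSF1, which overlaps TYMS by 3176 bases, stood at 5.01, 3.20 and 2.92 and was thus lower where TYMS was higher. The strandedness of the libraries is not given in the sources used here, so fragments of the shared stretch cannot be told apart. DNA copy number was not analysed here.

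**Figure D3:**
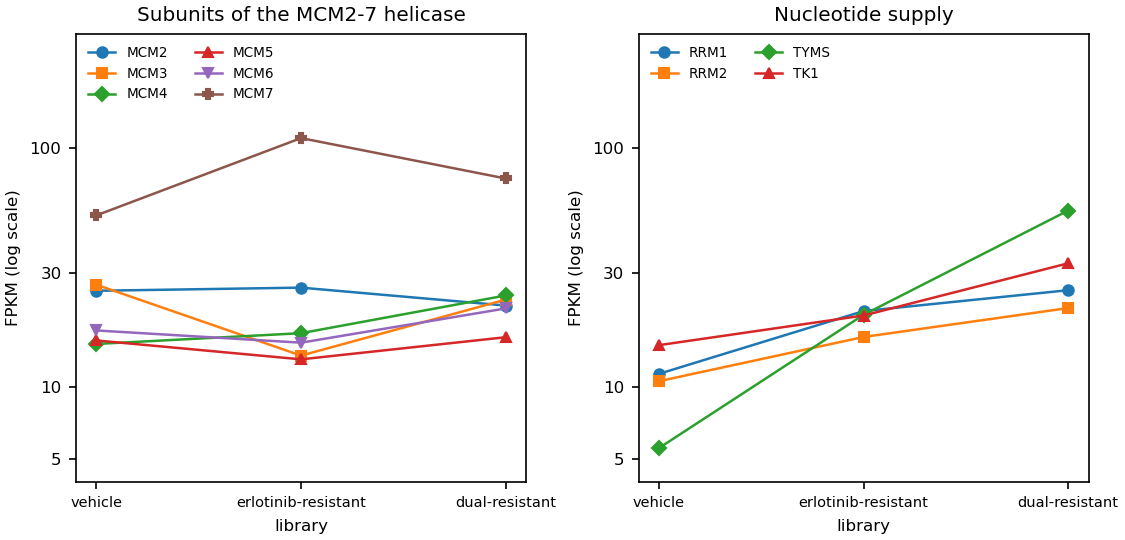
FPKM (log axis) of the MCM2-7 subunits and of the 4 nucleotide enzymes in the 3 libraries, 1 library per group, with lines only to join a gene's points. MCM7 peaks at 109.8 FPKM in the erlotinib-resistant library above the other subunits, and TYMS climbs from 5.54 to 54.6.

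The 6 subunits of the MCM2-7 helicase, which form a ring with 1 copy of each, differed little apart from MCM7 and MCM3. MCM7 (Entrez ID 4176, chromosome 7, 99690404 to 99699427) had 52.2 FPKM in vehicle, 109.8 after erlotinib and 74.4 after both drugs. Its log2 difference was 1.06 at the first step and -0.56 at the second. The other 5 subunits lay between 13.0 and 26.7 FPKM in every library. MCM7 was 3.03 times their median in vehicle, 7.18 times after erlotinib and 3.40 times after both drugs. MCM3 went the other way at the first step, from 26.7 FPKM in vehicle to 13.5, and then stood at 23.1 after both drugs, a first log2 difference of -0.93, the lowest of the 48. MCM2 stood at 25.2, 26.0 and 21.9, MCM4 at 15.1, 16.8 and 24.1, MCM5 at 15.6, 13.0 and 16.1, and MCM6 at 17.2, 15.3 and 21.3. As deposited, none of these 4 differed by more than 0.64 on the log2 scale.

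Genes around MCM7 on chromosome 7 mostly shared its direction. Of 25 genes within 500 kb, 22 had a positive log2 difference at the first step and 20 a negative one at the second. Their medians were 0.46 and -0.46, against 0.00 and -0.03 over all genes. The reason for this was not tested, and DNA copy number was not analysed. ZKSCAN1, a zinc finger gene, alone exceeded MCM7 at the first step (1.62), and the adjacent genes COPS6 and TAF6 had 0.48 and 0.83. In all 3 libraries AP4M1, which overlaps MCM7 by 298 bases, was listed at 0, as were the 3 microRNA rows inside MCM7, MIR25, MIR93 and MIR106B.

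**Figure D4:**
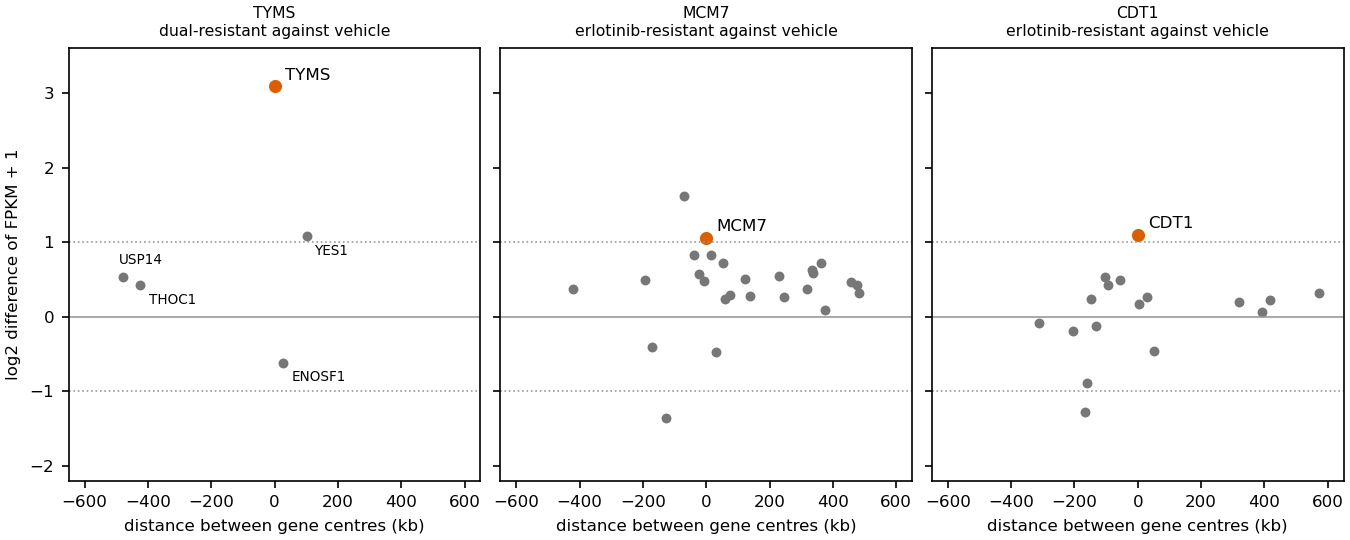
Log2 difference of FPKM + 1 (vertical) against the distance from the named gene in kb (horizontal) for the genes within 500 kb of TYMS (both steps together), MCM7 and CDT1 (first step), 1 library against 1, with dotted lines at 1 and -1. TYMS at 3.09 and CDT1 at 1.10 lie above all their neighbours, and MCM7 at 1.06 above all of its 25 but ZKSCAN1.

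Among the genes of origin recognition and licensing, CDT1 alone was called at either step. CDT1 (Entrez ID 81620, chromosome 16, 88870186 to 88875666) loads the helicase onto origins and is held in check by geminin, the product of GMNN. CDT1 stood at 8.74 FPKM in vehicle, 19.9 after erlotinib and 7.06 after both drugs. It was thus high in the erlotinib-resistant library alone, with log2 differences of 1.10 at the first step and -1.37 at the second. GMNN stood at 10.6, 10.8 and 14.1 FPKM, so that CDT1 was 0.827 times GMNN in vehicle, 1.84 times after erlotinib and 0.502 times after both drugs. Of the 16 genes compared within 500 kb of CDT1, 0 were called higher at the first step and 1 lower, and their median was 0.19. Of all genes, 3.81% were higher there and 6.03% lower, and counts among so few genes cannot be set apart from those shares. At the second step 12 of the 16 had a negative difference, with a median of -0.39 against -0.03 over all genes. SLC22A31, 1 of these neighbours, lay below CDT1. CDC6, which loads the helicase together with CDT1, stood at 9.65, 12.1 and 16.8 FPKM, within the limit at each step. Over both steps the log2 difference was 0.74 for CDC6 and 0.49 for ORC1, against -0.27 for CDT1. The origin subunits ORC1 and ORC6 stood at 3.29, 4.82 and 5.01, and at 8.92, 10.8 and 9.47.

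As deposited, none of the 6 helicase activators was called, while GINS1 passed the limit with the scaling to the same sum and both GINS1 and MCM10 with a pseudocount of 0.1. MCM10, which stabilises the active helicase, stood at 0.523, 0.982 and 1.39 FPKM, and CDC45, which joins it, at 2.36, 3.15 and 3.87. At levels as low as that of MCM10 the added 1 FPKM shrinks a difference. MCM10 in the dual-resistant library was 2.65 times vehicle as a plain ratio of FPKM. The GINS complex holds 1 copy of each of its 4 subunits, but their levels were not even. GINS1 stood at 5.48, 5.23 and 10.8 FPKM, GINS2 at 8.85, 5.14 and 8.24, GINS3 at 11.3, 10.6 and 9.21, and GINS4 at 2.27, 2.44 and 3.65. As deposited, GINS1 and GINS4 were highest in the dual-resistant library and GINS2 and GINS3 in vehicle, an order that turned for GINS2 and GINS3 with the scaling to the same sum.

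Of the polymerase genes POLA2 alone reached the limit as deposited, and PRIM1 also did at the second step with a pseudocount of 0.1 (-1.01). POLA2, the second subunit of polymerase alpha (Entrez ID 23649, chromosome 11, 65029432 to 65065088), had 6.64, 8.38 and 14.4 FPKM, a log2 difference of 1.01 over both steps. As deposited, its partners in the primase complex differed less over both steps. POLA1 was higher by 0.40 on the log2 scale, while PRIM1 and PRIM2 had -0.26 and -0.12. POLA1, the catalytic subunit, stood at 4.16, 6.65 and 5.84, and PRIM2, the large primase subunit, at 5.97, 4.61 and 5.40. PRIM1, the primase that starts each primer, was highest in the erlotinib-resistant library, at 8.39, 13.9 and 6.86 FPKM, with a log2 difference of -0.92 at the second step. PRIM2 has near-identical copies elsewhere in the genome, so its values are uncertain. In polymerase delta, the catalytic subunit POLD1 stood at 9.59, 17.9 and 16.3 FPKM, a log2 difference of 0.83 at the first step. Its accessory subunits differed less, POLD2 at 104, 96.4 and 114 and POLD3 at 10.2, 8.90 and 7.55. In polymerase epsilon, POLE stood at 6.26, 7.83 and 7.75 and POLE2 at 2.80, 3.48 and 3.06, the ratio of the pair keeping between 2.24 and 2.54. POLE2 lies wholly within the span of NEMF, which stood at 12.3 to 14.99 FPKM, so its reads may be shared.

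The clamp PCNA, often used as a marker of dividing cells, was highest in vehicle, at 87.6 FPKM, and stood at 56.3 after erlotinib and 65.9 after both drugs. Its log2 difference of -0.63 at the first step ran against the G2 and M phase genes. Of the clamp loader, RFC1 stood at 14.7, 24.0 and 21.2 FPKM, RFC2 at 15.8, 19.2 and 23.2, and RFC3 at 12.4, 17.4 and 17.3, all lowest in vehicle. RFC4 stood at 27.3, 27.9 and 14.9, a log2 difference of -0.86 at the second step, and RFC5 at 15.7, 14.4 and 10.7, both lowest in the dual-resistant library. RFC4 and EIF4A2, at 169, 259 and 143 FPKM, share 4 bases at their ends. The subunits of RPA, which coats single-stranded DNA, also parted. RPA1 stood at 35.9, 43.3 and 50.2 FPKM, RPA2 at 26.3, 20.8 and 23.2 and RPA3 at 21.5, 19.7 and 16.1, so that the highest was 1.67, 2.19 and 3.12 times the lowest. RPA3 shares 77897 bases of its span with LOC729852, listed at 13.1 to 14.9 FPKM.

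As deposited, genes that finish the new strand differed by less than 0.8 on the log2 scale in every comparison. FEN1, which trims Okazaki fragments, stood at 17.7, 14.6 and 25.8 FPKM. LIG1, the ligase that joins them, stood at 4.84, 5.30 and 5.93. UNG, which removes uracil from DNA, stood at 27.4, 23.8 and 23.1. Of the genes that package the copied DNA, CHAF1A and CHAF1B, 2 subunits of the histone chaperone CAF-1, stood at 5.72, 8.03 and 8.55 and at 3.10, 3.59 and 6.31. UHRF1, which brings the maintenance methyltransferase to new DNA, stood at 3.78, 3.97 and 8.27 FPKM, nearly level in the first pair and a log2 difference of 0.90 at the second step. SLBP, which binds histone mRNA, stood at 40.1, 37.7 and 50.9. CLSPN, an adaptor of the replication checkpoint, stood at 0.286, 0.516 and 1.43 FPKM, 5.0 times vehicle after both drugs as a plain ratio and 0.92 on the log2 scale of FPKM + 1. E2F1, the factor named for this programme, stood at 7.15, 6.09 and 7.71 and differed by no more than 0.30.

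Of the 42 promoters, those with and without an E2F-type word belonged to genes of overlapping differences. At the first step the 20 genes with a word had a median log2 difference of 0.17, from -0.93 to 1.68, and the 22 without one a median of 0.26, from -0.31 to 0.83. The 3 genes called higher there, TYMS, CDT1 and MCM7, all had one. Over both steps the medians were 0.28 and 0.50, and of the 4 genes called higher TYMS and POLA2 had one while RRM1 and TK1 did not.

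The wider pathway was read from 6 further lists with 97 genes. At the first step 4 of the 92 compared were higher and 0 lower (median 0.32). At the second step 1 of 92 was higher and 4 lower (median 0.09), and over both 10 of 94 were higher and 3 lower (median 0.29). Scaled to the same sum, the counts were 8 and 0, 2 and 2, and 17 and 1. Over all genes 3.81%, 10.1% and 11.0% were higher as deposited, and 6.03%, 7.22% and 10.4% lower, in the same order. With the scaling 5.54%, 11.4% and 15.3% were higher, and 4.78%, 6.30% and 7.89% lower. As deposited, the 10 of 94 higher over both steps thus lay near the share of all genes. The other origin licensing and firing genes had none called of 14 at the first step, with DBF4, the activator of the kinase CDC7, at 4.74, 10.4 and 7.06 FPKM just inside the limit. Over both steps 3 of these 14 were higher, DBF4B at 7.13 FPKM against 2.28, the helicase gene RECQL4 at 6.47 against 2.40 and MCM8 at 10.02 against 4.27. Of 17 other fork genes 0 were higher in any comparison as deposited, against 2 over both steps with the scaling to the same sum. TOP1, the topoisomerase that relieves twist ahead of the fork, stood at 90.3, 126 and 45.6 FPKM. POLD4, the smallest subunit of polymerase delta, stood at 96.2, 106 and 50.4, and these 2 were the fork genes called lower at the second step, POLD4 as deposited but not with the same sum.

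Of the E2F, pocket protein and S phase cyclin genes, 2 of 20 compared were higher at the first step and none lower. Of all genes, 3.81% were higher there and 6.03% lower. CCNA2, cyclin A, stood at 6.62, 17.6 and 23.6 FPKM and E2F7, an E2F that represses, at 0.658, 2.45 and 6.06. Over both steps 4 of 21 were higher and 1 lower, where 11.0% of all genes were higher and 10.4% lower. Next to CCNA2 and E2F7, the higher ones were MYBL2, a factor that activates late cell cycle genes, at 21.5 FPKM against 8.16, and CCNE1, cyclin E1, at 5.48 against 1.91, and the lower one was E2F4, a factor that works with the pocket proteins, at 32.9 against 71.2, which was within the limit with the scaling to the same sum (-0.83). Of 21 replication checkpoint and repair genes 2 were higher at the first step and 0 lower (median 0.53), against 5 with the same sum and 0 with scaling by the median ratio. Over both steps 3 were higher and 0 lower, against 5 and 4 higher with these scalings. Of all genes, 5.54% and 3.55% were higher at the first step with these scalings, and 15.3% and 11.3% over both. WEE1, which holds back mitosis, stood at 9.31, 19.9 and 15.5 FPKM and CHEK1, the kinase of the replication checkpoint, at 5.43, 11.9 and 12.6. CHEK1 was also among those higher over both steps, as was FANCI, of the Fanconi anaemia pathway, at 7.95 FPKM against 3.47. RAD51AP1, at 12.2 FPKM against 5.17, had the largest difference of this list over both steps (1.10). Of 8 histone chaperone and maintenance genes none was called at either step, and ASF1A, a histone chaperone, was lower over both steps, at 8.83 FPKM against 20.4, a call that the scaling to the same sum ended.

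The labelled cell type was checked against its markers. All 5 epithelial markers stood at 22.8 FPKM or more in every library, with a summed level of 3675, 3366 and 1782 FPKM. Over both steps 3 of the 5 were called lower and 0 higher, where 10.4% of all genes were lower. EPCAM stood at 306, 345 and 41.1 FPKM, CDH1 at 172, 194 and 22.8, and KRT18 at 1115, 993 and 424. KRT8 and KRT19 were within the limit. Of 3 lung adenocarcinoma markers, the lung factor NKX2-1 stood at 56.0, 40.0 and 28.4. NAPSA, an aspartic protease of lung epithelium, stood at 147, 81.4 and 10.1, and was called lower over both steps (-3.74). SFTPB, a surfactant protein, stood at 0.663, 2.00 and 0.0213, under 1 FPKM in vehicle and after both drugs. Of 5 fibroblast markers 1, 1 and 3 reached 1 FPKM, with a summed level of 3.90, 2.55 and 7.93 and none over 5.38. None of the 4 leukocyte and 3 endothelial markers reached 1 FPKM in any library. The lower levels of epithelial and lung markers after both drugs stood beside the differences of the replication genes there, and their part in them was not tested.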

How the data were processed

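The authors deposited 1 table of FPKM values with 1 column per library. Per the submitters' processing notes, the tools were TopHat 1.3 and Cufflinks 1.3, with build GRCh37. Strandedness, settings and gene set: not given in the sources used here. Coordinates of genes are on GRCh37, from 1, and those of promoters on GRCh38.p14.

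Rows with the same symbol were summed, which touched none of the 48 genes. Log2 differences of FPKM + 1 were taken over genes that reached 1 FPKM in any library, and genes were called by size alone, at 1 or more, with no p-value. The pseudocount understates differences of low genes. A gene listed at 0 in a library compared was left out of the counts for lists but not out of the background. The table holds no counts, so depth is only estimated: percentile 1 of FPKM times length over single-exon coding genes of 1 to 5 kb (GENCODE 29, by symbol) gave 0.0146, 0.0211 and 0.0232 FPKM per fragment in 1 kb.

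All 48 genes are accounted for, those past the limit singly. Some genes are named from each other list, not always those with the largest differences. The genes, lists and roles were chosen with earlier results of these data known, and the neighbours, motif words and ratios after the values were seen. The calling step was tested on simulated data with planted changes larger than the limit. The noise there was assumed, so that test gives no rate of false calls for these libraries. Python 3.11.15, pandas 2.3.3, numpy 2.4.6 and matplotlib 3.10.9 were used. Alternatives tried were 2 scalings, a pseudocount of 0.1, no minimum, a minimum of 5 FPKM, the largest row of a symbol and a limit of 0.6.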

Additional observations from a re-analysis of the deposited data

How the results depend on the processing

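With 1 library per group no library could be left out, and no paired analysis was possible because each group has 1 library and no test was run. The 9 calls of single genes kept their direction and stayed past the limit under both scalings and a pseudocount of 0.1. The other 4 alternatives leave these values as they are and so did not test them. Scaling to the same sum gave a median over the 48 genes of 0.28 in the erlotinib-resistant and 0.63 in the dual-resistant library against vehicle, 9 genes higher in the latter comparison and 2 in the dual-resistant against the erlotinib-resistant library. A pseudocount of 0.1 gave 8 higher in the dual-resistant library against vehicle (14.2% of all genes were higher), and 4 higher and 2 lower in the dual-resistant against the erlotinib-resistant library (12.9% and 10.3%). A limit of 0.6 gave 7 higher and 3 lower in the erlotinib-resistant library against vehicle (11.8% and 13.8% of all genes), 9 and 3 in the dual-resistant against the erlotinib-resistant library (18.0% and 16.4%) and 13 and 1 in the dual-resistant library against vehicle (20.3% and 20.0%). Leaving out the 5 genes that overlap an expressed gene, an alternative added after seeing the data, left 0 higher in the dual-resistant against the erlotinib-resistant library, since TYMS is 1 of them. The median ratio, no minimum, a minimum of 5 FPKM and the largest row of a symbol moved no count of the 48 by over 1.5 times.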

Other observations

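Some genes next to the 48 could not be compared in at least 1 of the comparisons, and were picked out after their values were seen. SAMHD1, which breaks down deoxyribonucleotides and so works against ribonucleotide reductase, was nearly absent from the table's values, at 0.120 FPKM in vehicle, listed at 0 after erlotinib and at 0.0188 after both drugs. CCNE2, the second cyclin E, stood at 4.60 FPKM in vehicle and 5.80 in the dual-resistant library but at an exact 0 after erlotinib, and such a 0 can be a failed estimate. DONSON, a gene of helicase assembly, was listed at 0 in all 3 libraries. NME1, a nucleoside diphosphate kinase, had no value after erlotinib, 239 FPKM in vehicle and 307 after both drugs.

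BIRC5, which encodes survivin, a protein of the mitotic spindle, lies within 500 kb of TK1 with 9.84 FPKM in vehicle, 15.4 after erlotinib and 25.4 after both drugs. TK1 stood at 14.9, 19.9 and 32.9. CDCA5, which encodes sororin, a protein that holds sister chromatids together after replication, lies as near to POLA2 and stood at 6.39, 16.3 and 23.3 FPKM, where POLA2 stood at 6.64, 8.38 and 14.4. BIRC5 was the 1 gene called higher over both steps among the 8 compared near TK1, where 1 was lower and the median was 0.14. CDCA5 was the 1 called higher among the 42 near POLA2, where 5 were lower and the median was -0.04. Over all genes 11.0% were higher and 10.4% lower. The pairs of BIRC5 with TK1 and CDCA5 with POLA2 are given as values only.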
